A study of Homo sapiens with 3 samples.

Results

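Intermediate filament genes were examined in HEK293T, a line grown from human embryonic kidney and carrying large T antigen of SV40. The set held 10 genes in 4 classes: the neural filament genes NEFL, NEFM, INA and NES, the simple epithelial keratins KRT8, KRT18 and KRT19, the mesenchymal filament VIM, and the lamins LMNA and LMNB1. They were chosen by symbol, from GEO's annotation of the array, with earlier results of these data known. The rule itself uses no measured value. The array named 11963 genes in all. The 10 had 15 of the 22277 probe sets of the array, or 15 of the 19070 with 1 gene symbol. All cells received dCas9VP160, a Cas9 without nuclease activity that is fused to an activation domain, by Fugene HD transfection. The 3 groups of 1 array each were sgIL1RN1~3, guides to the IL1RN promoter, sgTetO, a guide to the TetO promoter, and sgTetOmut, a mutated sgTetO without a target. Since no group was repeated, no test between conditions was possible, no difference has a replicate check, and the number of arrays limits the precision.

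Intermediate filaments are built from rod-shaped proteins that pair through coiled coils, and each tissue uses its own members of the family. Type I keratins such as keratin 18 and 19 pair with type II keratins such as keratin 8 in epithelia. Vimentin forms filaments in mesenchymal cells and in many cultured lines, the neurofilament subunits and alpha-internexin do so in neurons, and nestin is known from neural progenitors. Lamins line the inside of the nuclear envelope in nearly all cells. Which cytoplasmic filaments a line expresses is often used to describe its lineage, and HEK293 cells are known to carry neuronal filaments despite their kidney origin.

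Promoter sequences of 6 of the 10 genes were found. Those of VIM, INA and NES are shown, for the mesenchymal, neuronal and neural progenitor filaments. They are RefSeq sequences of GRCh38.p14, 250 bases before to 50 after the annotated start, written 5′ to 3′ on the gene's strand. The VIM stretch lies at chr10:17227991-17228290 on the plus strand, that of INA at chr10:103276888-103277187 on the plus strand and that of NES at chr1:156677358-156677657 on the minus strand. Capitals mark matches on either strand to the letters GGGCGG, known as the GC box.
VIM promoter: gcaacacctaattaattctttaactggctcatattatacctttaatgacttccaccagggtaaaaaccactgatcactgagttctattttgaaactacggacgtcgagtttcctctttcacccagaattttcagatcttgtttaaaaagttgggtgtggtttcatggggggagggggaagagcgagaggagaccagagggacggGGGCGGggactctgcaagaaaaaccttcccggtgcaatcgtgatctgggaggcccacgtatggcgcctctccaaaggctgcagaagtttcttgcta
INA promoter: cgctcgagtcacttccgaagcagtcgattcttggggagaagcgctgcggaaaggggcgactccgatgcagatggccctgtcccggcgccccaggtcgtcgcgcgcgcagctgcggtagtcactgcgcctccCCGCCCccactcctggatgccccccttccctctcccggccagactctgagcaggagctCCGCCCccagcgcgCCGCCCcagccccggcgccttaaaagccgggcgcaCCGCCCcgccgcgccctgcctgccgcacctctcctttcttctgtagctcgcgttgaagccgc
NES promoter: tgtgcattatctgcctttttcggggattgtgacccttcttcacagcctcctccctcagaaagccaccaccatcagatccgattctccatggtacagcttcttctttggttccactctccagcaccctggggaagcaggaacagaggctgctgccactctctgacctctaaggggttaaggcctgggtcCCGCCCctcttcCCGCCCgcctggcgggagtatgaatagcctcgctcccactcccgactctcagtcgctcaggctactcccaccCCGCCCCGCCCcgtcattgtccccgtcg
The VIM stretch held 1 GC box, INA 4 and NES 4, of which the last pair in NES shares a base. Over 35116 promoters of the same length, 45.0% held at least 1. None of the 3 stretches held a TATA box (TATAAA, in 11.5% of all promoters), a CCAAT box (CCAAT, in 34.6%) or an AP-1 motif (TGANTCA, in 7.71%), all searched on both strands. CpG dinucleotides numbered 10 in VIM, 35 in INA and 14 in NES, beside a median of 14 over all promoters. These matches describe the letters and say nothing of which factors bind.

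On GRCh38.p14, VIM spans chr10:17228241-17237593, and INA lies on the same chromosome at chr10:103277138-103290346. NEFL (chr8:24950955-24956612) and NEFM (chr8:24913761-24919093) are neighbours, 31861 bases apart with 1 listed gene between them. KRT8 (chr12:52897191-52949860) and KRT18 (chr12:52948855-52952906) adjoin, and their annotated spans share 1006 bases. KRT19 lies apart from them at chr17:41523617-41528308. NES (chr1:156668763-156677407) and LMNA (chr1:156082573-156140081) are both on chromosome 1, and LMNB1 is at chr5:126776623-126837020. The gene table lists 68 pseudogenes named after KRT18 and 52 named after KRT8, against 5 for KRT19, 1 each for NEFL and NEFM, and 0 for the other members.

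The values are the deposited probe set values, taken as log2. The 27 probe sets for Bacillus subtilis transcripts, absent from human cells, gave the background scale. A probe set that did not exceed their highest value, 3.40 on the sgIL1RN1~3 and sgTetO arrays and 3.29 on sgTetOmut, was taken as not above background. The RNA is from bulk cultures, so fewer expressing cells and less RNA per cell cannot be told apart. On each array 14 of the 15 filament probe sets lay above that value, and the exception was the single KRT19 set. The same was true of 72.5% of all 19070 named probe sets on sgIL1RN1~3, 71.7% on sgTetO and 73.9% on sgTetOmut, so most genes of any kind pass this limit. Probe sets differ in how strongly they bind their transcripts. The values therefore place each set against background and do not rank the genes by transcript amount. As a check of the sgIL1RN1~3 label, IL1RN (212657_s_at) read 7.01 on sgIL1RN1~3, 2.28 on sgTetO and 2.23 on sgTetOmut. It cannot tell sgTetO from sgTetOmut, so the labels of those arrays were not checked. A dimmer IL1RN set, 212659_s_at, read 3.80 on sgIL1RN1~3, 2.88 on sgTetO and 3.29 on sgTetOmut. The other 3 IL1RN sets were not above background on any array and differed by -0.46 to -0.16 log2 units on sgIL1RN1~3 from the other arrays.

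**Figure D1:**
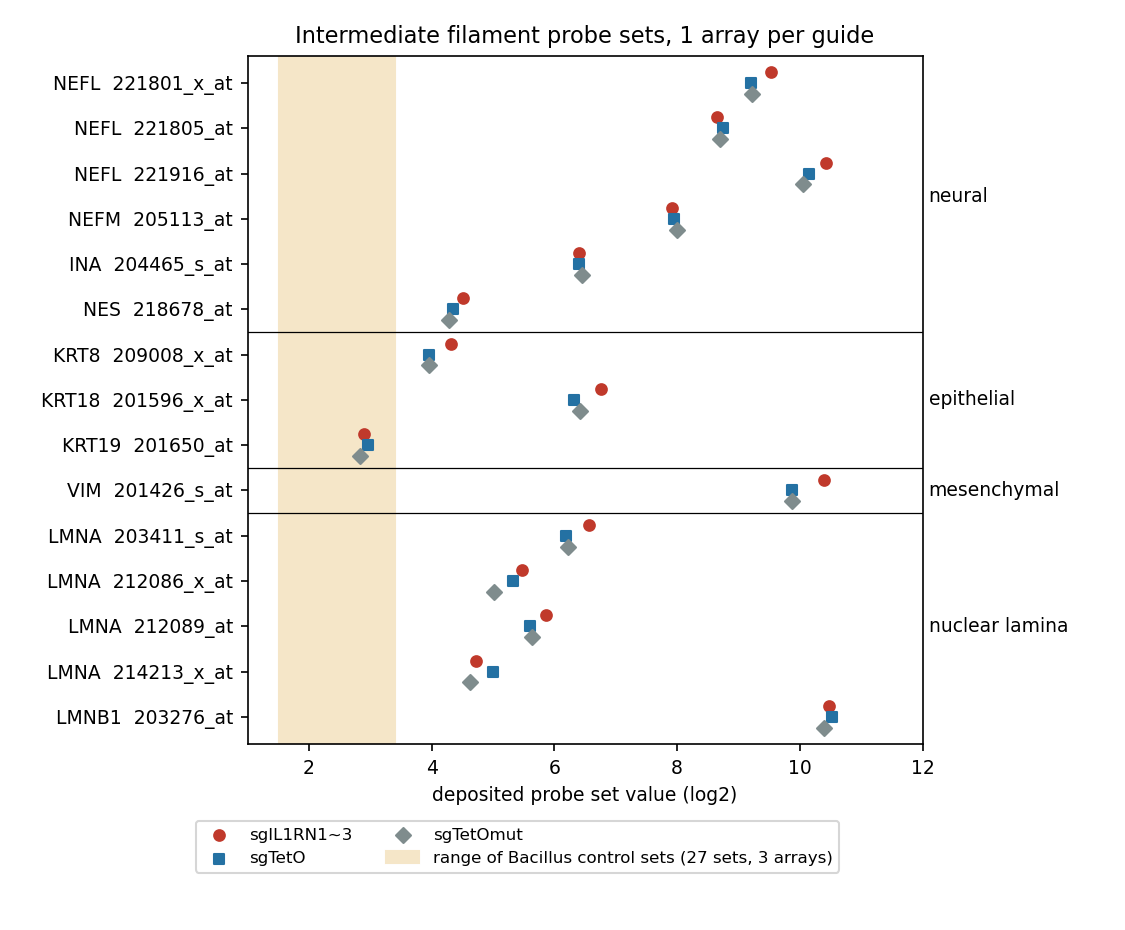
Deposited log2 value (horizontal axis) of each of the 15 filament probe sets (rows, by class) on the 3 arrays, 1 point per array; the shaded band is the range of the 27 Bacillus sets over the 3 arrays. KRT19 lies inside the band on every array, KRT8 and NES lie within 1.11 log2 units of its upper edge, and positions on the axis do not rank genes by transcript amount.

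All 6 neural filament probe sets were above background on all 3 arrays. NEFL encodes the light neurofilament subunit, the core on which neurofilaments assemble. Its set 221916_at read 10.42 on sgIL1RN1~3, 10.16 on sgTetO and 10.06 on sgTetOmut, or 7.02, 6.75 and 6.77 log2 units above the highest Bacillus value. The set 221801_x_at read 9.53 on sgIL1RN1~3, 9.21 on sgTetO and 9.22 on sgTetOmut. The third NEFL set, 221805_at, read 8.65 on sgIL1RN1~3, 8.74 on sgTetO and 8.69 on sgTetOmut. So 2 of the 3 NEFL sets were highest on sgIL1RN1~3 and 1 was lowest there, although 221801_x_at and 221805_at were designed from the same source sequence, per GEO's annotation of the array.

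NEFM, the medium neurofilament subunit, had 7.91 on sgIL1RN1~3, 7.95 on sgTetO and 7.998 on sgTetOmut. Its values covered 0.085 log2 units. INA, alpha-internexin, which joins neurofilaments in central neurons, had 6.40 on sgIL1RN1~3, 6.40 on sgTetO and 6.46 on sgTetOmut. The first 2 of these are equal in every deposited digit, as were the values of 6.41% of all probe sets on that pair of arrays. NES, nestin, had 4.51 on sgIL1RN1~3, 4.35 on sgTetO and 4.28 on sgTetOmut, only 0.95 to 1.11 log2 units above the highest Bacillus value. NEFM and INA, each with 1 set, were thus nearly level over the arrays, and nestin was the neural member near background.

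Of the epithelial keratins, KRT19 had 2.90 on sgIL1RN1~3, 2.96 on sgTetO and 2.84 on sgTetOmut, which is -0.51 to -0.44 log2 units away from the highest Bacillus value. It is the smallest of the keratins, known from ducts and simple epithelia, and was not above background on any array. KRT18 had 6.76 on sgIL1RN1~3, 6.32 on sgTetO and 6.42 on sgTetOmut. Its partner KRT8 had 4.32 on sgIL1RN1~3, 3.95 on sgTetO and 3.95 on sgTetOmut, between 0.55 and 0.91 log2 units above the highest Bacillus value. Both keratins above background were thus highest on sgIL1RN1~3. Their only probe sets, 201596_x_at and 209008_x_at, carry the suffix that the array's maker gives to sets with probes that also match other transcripts. That suffix, _x_at, was found on 5 of the 15 filament sets and on 9.67% of all named sets. Another suffix, _s_at, for sets whose probes are shared by several transcripts, often of 1 gene, was found on 3 filament sets: those of INA and VIM and LMNA 203411_s_at. Whether pseudogene or paralog transcripts add to the KRT8 and KRT18 values was not tested. Without such sets the epithelial class would hold KRT19 alone.

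VIM, the 1 mesenchymal member, had 10.39 on sgIL1RN1~3, 9.87 on sgTetO and 9.88 on sgTetOmut. It lay 6.47 to 6.99 log2 units above the highest Bacillus value. Its value on sgIL1RN1~3 stood apart, while those on sgTetO and sgTetOmut were within 0.01 log2 units of each other.

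The lamins were above background in all 5 sets. LMNB1 encodes lamin B1, a permanently farnesylated lamin, and had 10.48 on sgIL1RN1~3, 10.53 on sgTetO and 10.40 on sgTetOmut. LMNA encodes lamins A and C by alternative splicing and had 4 sets. Of these, 203411_s_at read 6.56 on sgIL1RN1~3, 6.19 on sgTetO and 6.22 on sgTetOmut. A similar order was seen for 212089_at, with 5.87 on sgIL1RN1~3, 5.61 on sgTetO and 5.63 on sgTetOmut. The sets 212086_x_at and 214213_x_at carry the suffix described above. The first read 5.48 on sgIL1RN1~3, 5.33 on sgTetO and 5.02 on sgTetOmut, and the second 4.72, 5.01 and 4.63 on the same arrays. The 4 sets of LMNA thus give different orders of the arrays, and agree only in reading higher on sgIL1RN1~3 than on sgTetOmut.

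A second yardstick came from genes that HEK293T cells should lack, and it was added after the data were seen. The 16 probe sets of 10 blood and endothelial markers had medians of 2.99 on sgIL1RN1~3, 3.12 on sgTetO and 3.07 on sgTetOmut. The highest of them, CD14, a monocyte receptor, read 3.89 on sgIL1RN1~3, 3.83 on sgTetO and 4.23 on sgTetOmut. By this measure 14 of the 15 filament sets stood above on sgIL1RN1~3, 14 on sgTetO and 13 on sgTetOmut. Of all named sets, 66.8% stood above CD14 on sgIL1RN1~3, 66.9% on sgTetO and 62.9% on sgTetOmut. Besides KRT19, which lay under CD14 throughout, KRT8 lay under it on sgTetOmut, and NES exceeded it there by 0.05 log2 units. The neurofilament, alpha-internexin, VIM, KRT18 and lamin sets lay above CD14 on every array.

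Between arrays, a probe set was counted when it differed by at least 2-fold, or at least 1.5-fold, with values under background raised to the highest Bacillus value. At 2-fold, 0 of the 15 filament sets were counted in any of the 3 pairs. For all named probe sets this limit was passed upwards by 0.163% and downwards by 0.163% on sgIL1RN1~3 relative to sgTetO. Relative to sgTetOmut it was passed upwards by 0.105% and downwards by 0.372% on sgIL1RN1~3, and upwards by 0.0105% and downwards by 0.299% on sgTetO. At 1.5-fold the count was again 0 of 15 in each pair, where all sets gave 2.34% higher and 1.48% lower for sgIL1RN1~3 over sgTetO, 1.46% and 1.41% for sgIL1RN1~3 over sgTetOmut, and 0.267% and 0.787% for sgTetO over sgTetOmut. With 15 sets, shares this low give counts at or near 0, so the absence of counted sets is what the background share alone would give.

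**Figure D2:**
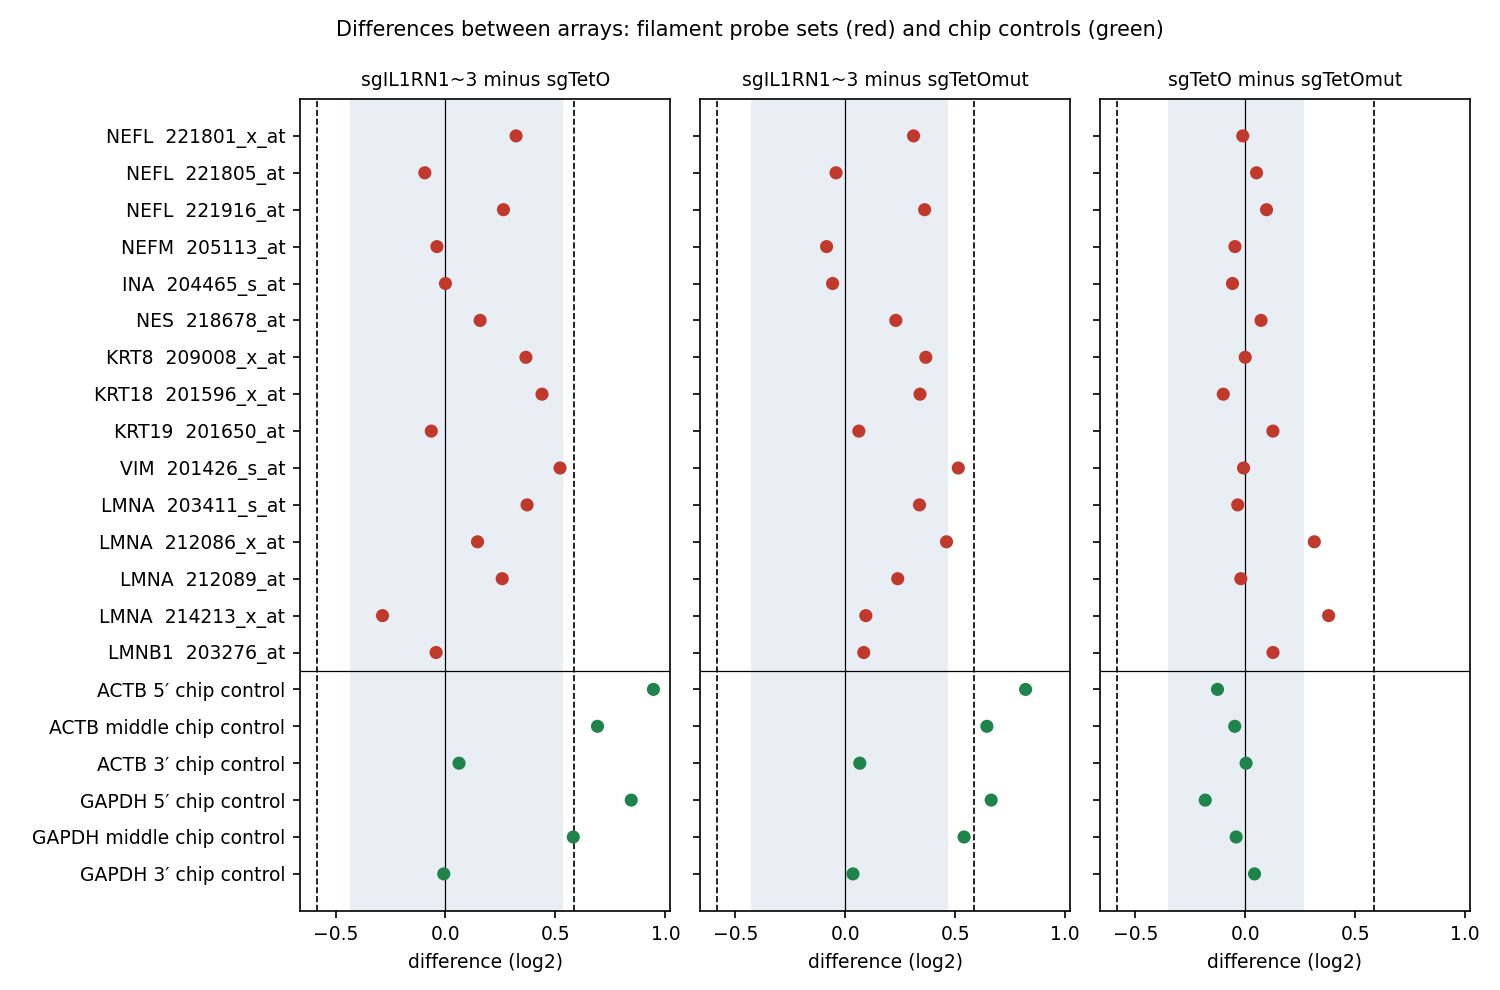
Log2 difference (horizontal axis) of each filament probe set (red) and of the ACTB and GAPDH chip controls (green) for the 3 pairs of arrays; shading spans the 5th to 95th percentile of all named probe sets above background, and dashed lines mark 1.5-fold. No filament set reaches a dashed line, and the 5′ control sets lie beyond it in both pairs with sgIL1RN1~3.

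Under those limits the filament genes differed in size and direction. VIM was 0.52 log2 units (1.44-fold) higher on sgIL1RN1~3 than on sgTetO and 0.51 (1.43-fold) higher than on sgTetOmut. KRT18 was 0.44 and 0.34 higher, and KRT8 0.37 higher than on each. For LMNA 203411_s_at the differences were 0.37 from sgTetO and 0.34 from sgTetOmut, and for 212089_at they were 0.26 and 0.24. For LMNA 212086_x_at they were 0.15 and 0.46, and for 214213_x_at -0.29 and 0.09. NEFL 221801_x_at differed by 0.32 and 0.31, and 221916_at by 0.26 and 0.36. Those of the other neural sets were smaller: NES by 0.16 and 0.23, INA by 0.00 and -0.06, NEFM by -0.04 and -0.09 and NEFL 221805_at by -0.09 and -0.04. LMNB1 differed by -0.04 from sgTetO and 0.08 from sgTetOmut.

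Counted by order alone, 9 of the 14 filament sets above background were higher on sgIL1RN1~3 than on both other arrays, and 2 were lower than on both. Among all 14288 named sets above background on at least 1 array, 41% were above and 33% below both others on sgIL1RN1~3. On sgTetO, 3 of the 14 were above both others (24% of all named sets) and 5 below (37.8%), and on sgTetOmut 2 were above (28.8%) and 5 below (22.3%). The 9 sets belonged to 6 genes (NEFL, NES, KRT8, KRT18, VIM and LMNA), and sets of 1 gene share its transcripts. The median difference of the 14 sets was 0.21 log2 units relative to sgTetO, against 0.03 for all named sets, and 0.27 relative to sgTetOmut, against 0.00. Both pairs use the same sgIL1RN1~3 array and are not separate evidence. By class, the median difference from sgTetO was 0.08 for the 6 neural sets, 0.40 for the 2 keratin sets above background, 0.52 for VIM and 0.15 for the 5 lamin sets. From sgTetOmut it was 0.09 for the neural sets, 0.35 for the keratin sets, 0.51 for VIM and 0.24 for the lamin sets.

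The spread over all genes puts these sizes in scale. Of named sets above background, 5% lay more than 0.53 log2 units higher on sgIL1RN1~3 than on sgTetO, and 5% more than 0.46 higher than on sgTetOmut. VIM passed the second of these values and not the first, and no other filament set passed either. Control sets on the chip for the abundant transcripts ACTB (beta-actin) and GAPDH also moved with this array. Their 5′ sets were 0.84 to 0.95 log2 units higher on sgIL1RN1~3 than on sgTetO, their middle sets 0.58 to 0.69 higher, and their 3′ sets differed by -0.01 to 0.06. Relative to sgTetOmut the 5′ sets were 0.66 to 0.82 higher, the middle sets 0.54 to 0.64 higher and the 3′ sets 0.03 to 0.07 higher. The 5′ and middle sets thus moved by more than VIM did. Such sets report how far along the transcripts the labelled RNA reached, and the part of this in the VIM, KRT8, KRT18, NEFL and LMNA differences was not tested.

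**Figure D3:**
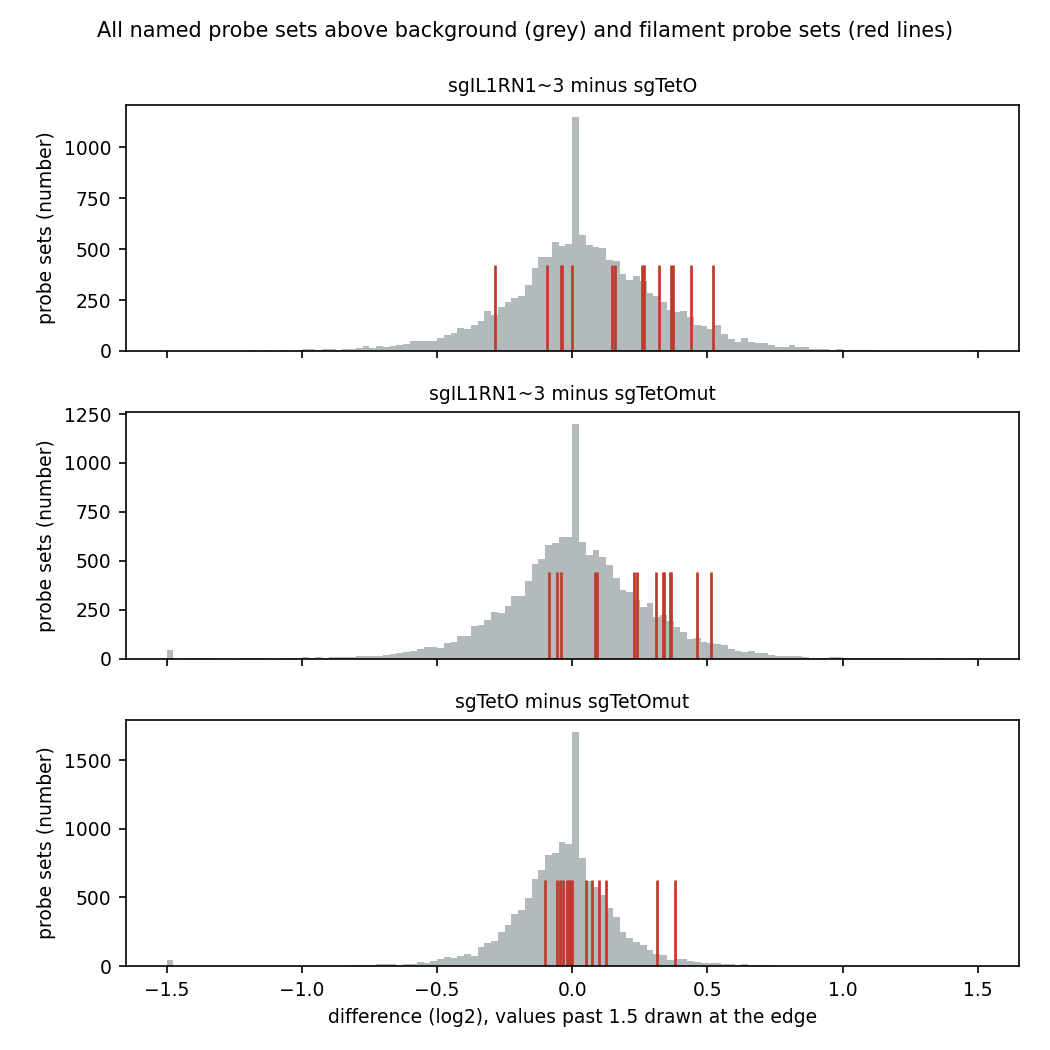
Number of named probe sets above background (vertical axis) by log2 difference between arrays (horizontal axis) for the 3 pairs, with the 14 filament sets above background as red lines. In both pairs with sgIL1RN1~3 the filament sets lie mostly right of 0, with medians of 0.21 and 0.27, and in sgTetO minus sgTetOmut they lie around 0.

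The pair without that array showed smaller differences. Between sgTetO and sgTetOmut the median over the 14 filament sets was -0.00 log2 units, against -0.02 for all named sets, and the median size of the difference was 0.05, against 0.10. VIM differed by -0.01, KRT8 by 0.00, KRT18 by -0.10, NEFM by -0.05, INA by -0.06 and NES by 0.07. LMNA again split by set: 212086_x_at was 0.31 and 214213_x_at 0.38 log2 units higher on sgTetO, while 203411_s_at and 212089_at differed by -0.03 and -0.02. Both of the higher sets exceed the 95th percentile of all named sets in this pair, 0.26, and both carry the _x_at suffix. LMNB1 was 0.13 higher on sgTetO.

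Other keratins were mostly not above background. Over all 11963 named genes, 75% had a set above background on all 3 arrays and 21.4% had none above on any array. Of the 17 further type I keratins measured, 14 were never above background, and 2 were above on all 3 arrays. These were KRT10, the keratin of differentiated epidermis, whose set 207023_x_at read 9.97 on sgIL1RN1~3, 10.04 on sgTetO and 10.17 on sgTetOmut, and KRT31, a hair keratin, with 3.88, 3.57 and 3.57 on the same arrays. Of the further KRT10 sets, 213287_s_at read 9.69 on sgIL1RN1~3, 9.85 on sgTetO and 9.85 on sgTetOmut. The set 210633_x_at read 9.39 on sgIL1RN1~3, 9.34 on sgTetO and 9.44 on sgTetOmut. Of 11 further type II keratins, 8 were never above background and KRT83, a hair keratin, alone was above on all 3 arrays, with 4.07 on sgIL1RN1~3, 4.47 on sgTetO and 4.36 on sgTetOmut. No set of either list passed 1.5-fold in any pair. KRT10 thus joined KRT18 as a keratin far above background, and KRT31 and KRT83 lay near it, as KRT8 did.

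Among the 9 other filament proteins, 6 were above background on all 3 arrays. GFAP and BFSP2 were above on none. The neurofilament gene NEFH was above only on sgTetO and sgTetOmut, at 3.55 and 3.87 by 33767_at, with 3.39 on sgIL1RN1~3. Its set 204412_s_at was not above background on any array. SYNM (synemin), SYNC (syncoilin) and LMNB2 (lamin B2) were bright, with 7.68, 7.40 and 7.48 on sgIL1RN1~3, 8.04, 7.36 and 7.43 on sgTetO and 7.75, 7.49 and 7.31 on sgTetOmut. PRPH, peripherin, a filament of peripheral neurons, had 7.43 on sgIL1RN1~3, 6.73 on sgTetO and 6.47 on sgTetOmut. It was 0.70 and 0.96 log2 units above the others, past 1.5-fold in both pairs. BFSP1, the lens filament protein filensin, had 3.94 on sgIL1RN1~3, 4.56 on sgTetO and 3.94 on sgTetOmut, all near background. It was highest on sgTetO and past 1.5-fold in both pairs with that array, by -0.62 log2 units for sgIL1RN1~3 minus sgTetO and 0.62 for sgTetO minus sgTetOmut. PRPH was thus highest on sgIL1RN1~3, as were NEFL 221801_x_at, NEFL 221916_at and NES by smaller amounts. NEFL 221805_at, NEFM and INA were not. The part of the higher 5′ controls of that array in the PRPH difference was not tested.

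Genes for proteins that tie filaments to junctions and to other parts of the cell were read next. Of 18 linker and desmosome genes, 12 (66.7%, under the 75% of all genes) were above background on all 3 arrays, led in brightness by MACF1, a spectraplakin, DSG2, a desmosomal cadherin, and PKP4, a plakophilin relative. MACF1 (208634_s_at) read 12.28 on sgIL1RN1~3, 12.17 on sgTetO and 12.20 on sgTetOmut. DSG2 read 11.92 on sgIL1RN1~3, 11.93 on sgTetO and 11.91 on sgTetOmut. In this list 1 set passed 1.5-fold against both others: DST 204455_at, of the linker dystonin, read 5.38 on sgIL1RN1~3, 6.11 on sgTetO and 6.04 on sgTetOmut. The brighter DST set 212254_s_at did not share this, at 10.97 on sgIL1RN1~3, 10.99 on sgTetO and 11.09 on sgTetOmut. The PKP4 set 201927_s_at was 0.72 higher on sgIL1RN1~3 than on sgTetO, while its brighter set 201928_at, at 11.88 on sgIL1RN1~3, 11.83 on sgTetO and 11.87 on sgTetOmut, differed by 0.04 from sgTetO.

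All 16 measured lamin partner and processing genes were above background on all 3 arrays. LBR, the lamin B receptor, read 12.28 on sgIL1RN1~3, 12.23 on sgTetO and 12.29 on sgTetOmut. ZMPSTE24, the protease that matures prelamin A, read 12.25 on sgIL1RN1~3, 12.26 on sgTetO and 12.24 on sgTetOmut. TOR1AIP1, which anchors to lamins at the inner nuclear membrane, read 11.39, 11.40 and 11.39 on the same arrays. The list held 2 sets past 1.5-fold in 1 pair each. They were TMPO 209754_s_at, at least 0.59 log2 units lower on sgIL1RN1~3 than on sgTetO, and ICMT 201610_at, 0.64 lower on sgIL1RN1~3 than on sgTetOmut. The brighter TMPO sets 203432_at and 209753_s_at did not share this, at 0.10 and 0.17 higher on sgIL1RN1~3 than on sgTetO. Nor did the brighter ICMT sets 201609_x_at and 201611_s_at, which differed by -0.11 and 0.11 on sgIL1RN1~3 from sgTetOmut. The 3 brightest partner genes were thus nearly level over the arrays, as LMNB1 was.

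**Figure D4:**
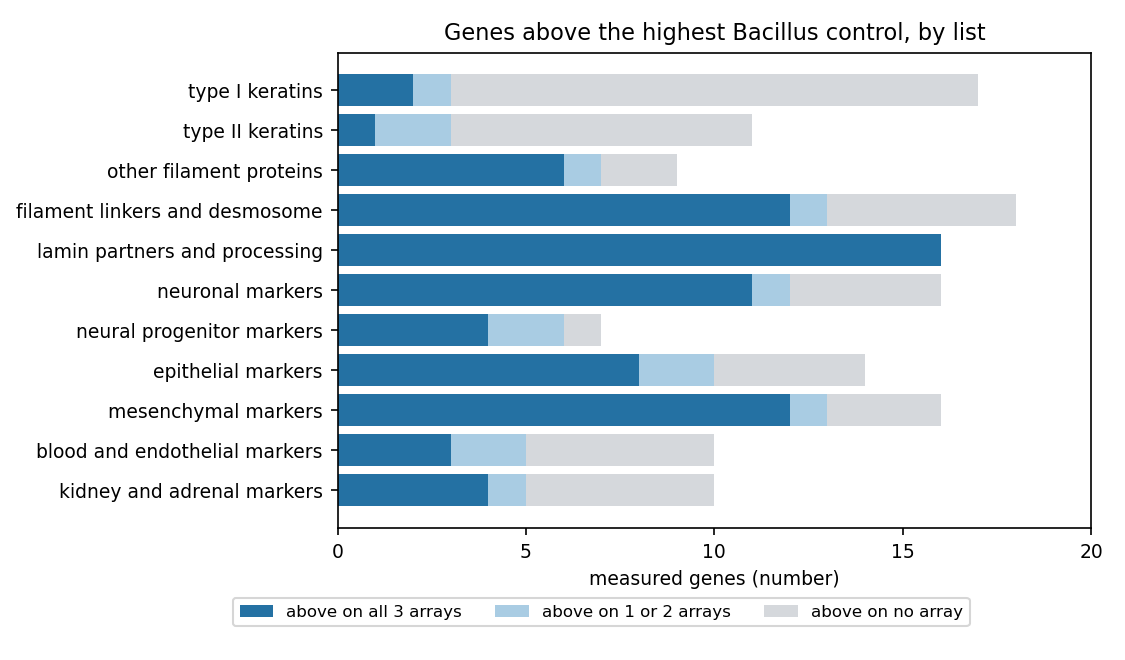
Number of measured genes (horizontal axis) in each list that were above the highest Bacillus value on all 3 arrays, on 1 or 2, or on none. The keratin lists have 14 of 17 and 8 of 11 genes above background on no array, and the lamin partner list has all 16 above on all 3.

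Markers of cell lineages were read in the same way. Of 16 neuronal markers, 11 (68.8%) were above background on all 3 arrays, or 10 of 14 without the filament genes NEFH and PRPH, beside 75% of all genes. Among them were TUBB3, a neuronal tubulin, with 10.96 on sgIL1RN1~3, 10.78 on sgTetO and 10.74 on sgTetOmut (202154_x_at), and UCHL1, with 10.42, 10.23 and 10.49. ENO2, neuronal enolase, read 10.18 on sgIL1RN1~3, 9.66 on sgTetO and 9.79 on sgTetOmut. Another 4 of the 16, MAP2, STMN2, DCX and ELAVL4, were not above background on any array. Of 16 mesenchymal markers, 12 (75%) were above on all 3, including TWIST1 with 12.34 on sgIL1RN1~3, 12.32 on sgTetO and 12.32 on sgTetOmut, and ZEB1 with 10.47, 10.42 and 10.41. CDH2, N-cadherin, read 12.32 on sgIL1RN1~3, 12.27 on sgTetO and 12.27 on sgTetOmut by 203440_at, though its dimmer set 203441_s_at was 0.63 and 0.83 higher on sgIL1RN1~3. POSTN 210809_s_at was 0.59 higher on sgIL1RN1~3 than on sgTetOmut. It read 4.45 on sgIL1RN1~3, 3.88 on sgTetO and 3.86 on sgTetOmut, near background. The other POSTN set, 214981_at, was not above background on any array. THY1, TAGLN and DCN, or 3 of the 16 mesenchymal markers, were above on none.

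Of 14 epithelial markers, 8 (57.1%) were above on all 3 arrays, and those brightest were SFN, MUC1 and EPCAM. CLDN7, ESRP1, SPINT1 and RAB25, or 4 of the 14, were above on none. EPCAM read 4.90 on sgIL1RN1~3, 5.19 on sgTetO and 5.19 on sgTetOmut. MUC1 (213693_s_at) read 5.34 on sgIL1RN1~3, 5.48 on sgTetO and 5.25 on sgTetOmut. SFN, stratifin, read 6.63 on sgIL1RN1~3, 5.80 on sgTetO and 6.06 on sgTetOmut by 33322_i_at. This set and 33323_r_at were the epithelial marker sets past 1.5-fold, by 0.83 and 0.79 log2 units over sgTetO. Against sgTetOmut they fell short of that limit, at 0.57 and 0.33. The dimmer SFN set 209260_at, near background, was higher on sgIL1RN1~3 by 0.28 than on sgTetO and by 0.02 than on sgTetOmut. Of 10 blood and endothelial markers, 3 (30%), namely CD14, CDH5 and HBB were above on all 3 arrays, each near background, and 5 were above on none. The neuronal, mesenchymal and epithelial lists thus each held genes above and genes not above background, as the keratin members did. Their shares were at or under that of all genes, so the counts set no lineage apart and do not check the label HEK293T.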

How the data were processed

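Gene expression was measured on single-channel arrays in 3 HEK293T samples, 1 per guide RNA. The authors deposited 1 value per probe set, and affy is named in the submitters' processing notes. Version, background correction, normalization and summary were not given in the sources used here. Deposited values ran from 1.36 to 14.52, and the deposited values were taken as log2 from this range, since no source states the scale. The sorted columns lay within 0.104 of their common mean, so the arrays had been scaled to one another and differences are relative to the bulk of genes. Names came from GEO's annotation of the array: 19070 had 1 symbol and 1043 several, and 19058 gene identifiers were in the GRCh38.p14 gene table. The members, lists and background scale were chosen with earlier results of these data known. Text names all members, the 3 brightest genes above background of each list, genes past 1.5-fold of both other arrays, and sets past 1.5-fold in 1 pair, the last chosen after their values were seen. It also names LHX1, STAR, NEFH, GFAP, BFSP2, some marker genes not above background and further sets of named genes, likewise chosen after their values were seen. Alternatives used limma 3.58.1 in R 4.3.3, and other steps Python 3.11.15, pandas 2.3.3 and numpy 2.4.6. No paired or replicate analysis was possible.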

Additional observations from a re-analysis of the deposited data

How the results depend on the processing

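No paired analysis was possible because each group held 1 array. Under quantile and cyclic loess scaling, a minimum at the median level, no filter, 1 value per gene by either rule, 16 added to linear values, and without the _x_at sets, the counts past 2-fold and past 1.5-fold stayed at 0 in every pair. Counted as genes, 9 of 10 were above background on each of the 3 arrays. With the 95th percentile of the Bacillus sets as limit all 15 sets passed on each array, KRT19 included, as did 82.7% to 85.3% of all named sets, and with 1 log2 unit above the highest Bacillus value 13 passed on sgIL1RN1~3, 12 on sgTetO and 12 on sgTetOmut, beside 61.1% to 62.4% of all named sets. The median difference ranged from 0.15 to 0.26 relative to sgTetO and from 0.19 to 0.34 relative to sgTetOmut on sgIL1RN1~3. For sgTetO minus sgTetOmut it had the opposite sign under quantile (0.05) and cyclic loess scaling (0.03). Of 45 differences of single sets, 4 changed sign under quantile scaling and 2 under cyclic loess, the largest of them 0.046 in size.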

Other observations

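Genes of kidney development and of the adrenal gland, which share an embryonic neighbourhood with the tissue HEK293T came from, gave a mixed picture beside the filaments. Of 10 measured, 4 (40%) were above background on all 3 arrays and 5 on none, beside 75% and 21.4% of all genes. The 4 were the kidney genes WT1, PAX2, PAX8 and LHX1, and no adrenal gene was above on all 3. LHX1, near background, read 3.51 on sgIL1RN1~3, 3.51 on sgTetO and 3.64 on sgTetOmut. WT1, a kidney transcription factor, read 9.02 on sgIL1RN1~3, 9.26 on sgTetO and 9.42 on sgTetOmut (206067_s_at). PAX2 read 5.62 on sgIL1RN1~3, 5.68 on sgTetO and 5.97 on sgTetOmut (206228_at), and PAX8, whose brightest set lay near background, read 3.74, 3.74 and 3.92 (207924_x_at). NR5A1, CYP11A1 and CYP17A1, of steroid-producing adrenal cells, and TH and DBH, of catecholamine-producing cells, were not above background on any array. STAR, also of steroid-producing cells, read 3.40 on sgIL1RN1~3, 3.53 on sgTetO and 3.68 on sgTetOmut, and was above background on sgTetO and sgTetOmut, by little.

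Of 7 neural progenitor markers measured, 4 (57.1%) were above background on all 3 arrays. PAX6 read 6.88 on sgIL1RN1~3, 6.61 on sgTetO and 6.55 on sgTetOmut, NOTCH1 read 5.41, 5.17 and 4.94, and PROM1 read 4.65, 4.998 and 4.93 on the same arrays. FABP7, a radial glia gene, was not above background on any array. No set of the kidney, adrenal or progenitor lists passed 1.5-fold in any pair.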
